A study of Mus musculus with 11 samples.

Results

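The genes described here are 9 direct targets of the transcription factor p53 that act in growth arrest and cell death: Cdkn1a, Ccng1, Mdm2, Bax, Bbc3, Eda2r, Phlda3, Trp53inp1 and Sesn2. They were taken by name, not by their measured values, from the 52636 genes counted by RNA sequencing in 11 mouse fetal livers. The choice was made with earlier results of these data known. All 9 were found and passed the filter on low counts. The question was whether a p53 response was seen beside the inflammatory one across 4 genotypes.

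p53 is a DNA-binding protein that accumulates when DNA is damaged or cells are stressed. It then switches on genes that stop the cell cycle, genes that trigger apoptosis through mitochondria or death receptors, and genes that feed back on p53 itself. In the embryo, unrestrained p53 is lethal, and its negative regulators Mdm2 and Mdm4 are needed to hold it down. Many of its targets also answer to other transcription factors, so the level of a single target is not a readout of p53 alone.

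The livers came from untreated C57BL/6N embryos at stage E15.5 of development. The genotypes were WT (3 livers), Tnfr1-/- (2 livers), Casp8-/- Mlkl-/- (3 livers) and Casp8-/- Tnfr1-/- (3 livers), with each allele absent from all cells of the embryo. Casp8 encodes caspase-8, the protease that starts death receptor apoptosis and blocks necroptosis. Mlkl encodes the pseudokinase that ruptures the membrane in necroptosis, and Tnfr1 is the TNF receptor encoded by Tnfrsf1a. Both Casp8-/- groups therefore also lacked a gene of the necroptosis route, and Casp8-/- livers with both of those genes intact were not part of the design. Each liver was a separate library of 23129212 to 35819339 counts, and a whole liver mixes blood-forming, hepatic and stromal cells, so fewer cells of a type and less RNA per cell cannot be told apart.

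Counts over the whole gene were lower where the labels say a gene was deleted for Casp8 and Mlkl, but not for Tnfrsf1a. Casp8 was at 7.82 to 21.9 CPM (counts scaled to a common library size, with TMM factors) in the 6 Casp8-/- livers and at 27.7 to 33.9 CPM in the 5 others. Mlkl was at 0.73 to 1.22 CPM in the Casp8-/- Mlkl-/- livers and at 3.68 to 24.6 CPM elsewhere. Tnfrsf1a was at 49.8 and 50.5 CPM in the Tnfr1-/- livers and at 47.1 to 53.4 CPM in WT. In the Casp8-/- Tnfr1-/- livers it was at 76.9, 76.0 and 424.8 CPM, above every WT liver, with a log2 fold change of 1.91 (SE 0.593, adjusted p = 0.0896) against WT and of 0.60 (SE 0.0775, adjusted p = 4.53e-05) without the 2 livers set apart below. The levels of Tnfrsf1a thus go against the label in that group if the whole gene were lost, and since no count per exon was analysed here, the absence of Tnfr1 in the livers labelled Tnfr1-/- or Casp8-/- Tnfr1-/- was not checked by these data.

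Before the results, 2 livers must be set apart. Casp8-/- Tnfr1-/- replicate 3 and Casp8-/- Mlkl-/- replicate 1 had TMM scaling factors of 0.758 and 0.812, and their 10 most abundant genes took 22.5% and 24.0% of all counts. In the 9 other livers that share was between 11.7% and 15.2%. Casp8-/- Tnfr1-/- replicate 3 held 171114 CPM of erythroid markers against 41748 to 68504 CPM in the others, and 1742 CPM of striated muscle markers against 15.7 to 39.8 CPM. The erythroid sum there was mostly globin, with Hbb-bs alone at 99918 CPM. Of the same list, Klf1, Gata1 and Epor were at 81.0, 96.5 and 82.6 CPM in that liver, below all others. Replicate 3 was also the single liver with high Xist (3409 CPM against at most 0.57 CPM) and with the Y-linked Ddx3y at 0.057 CPM. In Casp8-/- Mlkl-/- replicate 1, hepatocyte markers summed to 239636 CPM, against 54420 to 113013 CPM in the 10 others. Defining liver markers such as Alb and Afp were detected in every liver. Results that rest on these 2 livers are given with and without them.

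The 9 genes are bound by p53 through a response element, a pair of decamers of 10 bases with an invariant C and G in the core of each. To show what lies at their starts, windows of RefSeq (GRCm38.p6) from 250 bases before to 50 bases after a start were searched for a pair of p53 consensus decamers with a spacer of at most 1 base and at most 3 mismatches, keeping every core C and G. The decamer is its own reverse complement, so 1 search covers both strands. Windows were given for 8 of the 9 genes, all but Trp53inp1, and 4 genes held a pair: they are printed so that the arrest genes and the mitochondrial death genes can be set beside their levels, with the 4 core bases of each decamer in capitals.
Cdkn1a: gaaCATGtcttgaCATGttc
Ccng1: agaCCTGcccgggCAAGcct
Bax: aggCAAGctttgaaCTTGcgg
Bbc3: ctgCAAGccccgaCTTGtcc
The Cdkn1a pair lies at chr17:29090928-29090947 (plus strand), at base -51 from the start, with 1 mismatch. The Ccng1 pair lies at chr11:40755462-40755481 (minus strand), at base -195, also with 1 mismatch. The Bax pair at chr7:45467079-45467099 (minus strand, base -201) has 2 mismatches and a spacer of 1 base, and the Bbc3 pair at chr7:16309486-16309505 (plus strand, base -97) has 3 mismatches. All 4 lie upstream of the start of their window, but the Bbc3 pair lies inside the annotated span of that gene, chr7:16308393-16318205. Counted by window, 4 of the 11 windows of these genes held a pair. Among all 32851 windows, 2.82% held a pair with at most 3 mismatches and 0.11% one with at most 1. Counted by gene, it was 4 of 8 here and 3.27% of the 27025 genes with a window. These matches describe letters and do not show binding.

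In the WT livers the 9 genes spanned a wide range of levels per length. Bax, the pore-forming effector of mitochondrial apoptosis, was the highest at 43.4 ± 4.6 CPM per kb (SD, n = 3). Mdm2, the ubiquitin ligase that degrades p53, followed at 21.3 ± 0.416 CPM per kb, then Ccng1 at 15.7 ± 1.58 and Sesn2 at 8.56 ± 0.957 CPM per kb. Trp53inp1 was at 4.70 ± 0.457, Cdkn1a at 3.56 ± 0.18, Bbc3 at 3.29 ± 0.154 and Phlda3 at 2.28 ± 0.211 CPM per kb. Eda2r was near the detection limit at 0.0894 ± 0.0678 CPM per kb, from 2 to 19 counts a liver. Cdkn1a and Bbc3 are neighbours in this order whose WT livers overlapped, and the other neighbours did not overlap.

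Over all 11 livers, none of the 9 genes passed the test in any comparison (edgeR's quasi-likelihood test, Benjamini-Hochberg adjusted p under 0.05 over 17243 genes). In Casp8-/- Tnfr1-/- against WT, 0 of 9 were called where 5.8% of all genes were. Against Tnfr1-/- it was 0 of 9 with 2.17% of all genes called, and against Casp8-/- Mlkl-/- 0 of 9 with 1.65%. At an unadjusted p under 0.05, Cdkn1a and Bbc3 passed against WT and Cdkn1a alone in the other comparisons of the Casp8-/- Tnfr1-/- livers, where 24.6%, 16.3% and 15.3% of all genes did. DESeq2, which gave no p for Cdkn1a, and limma-voom called 0 of 9 in each comparison, and limma-voom with quality weights per library called Cdkn1a in each of the 3. No gene of the 9 had all 3 Casp8-/- Tnfr1-/- livers above all 8 others, which 7.43% of all genes did, and none had all 3 below, which 3.32% did. The median log2 fold change of the 9 genes was 0.32, 0.38 and 0.34 in the 3 comparisons, beside all-gene medians of -0.0015, -0.014 and -0.033.

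**Figure D1:**
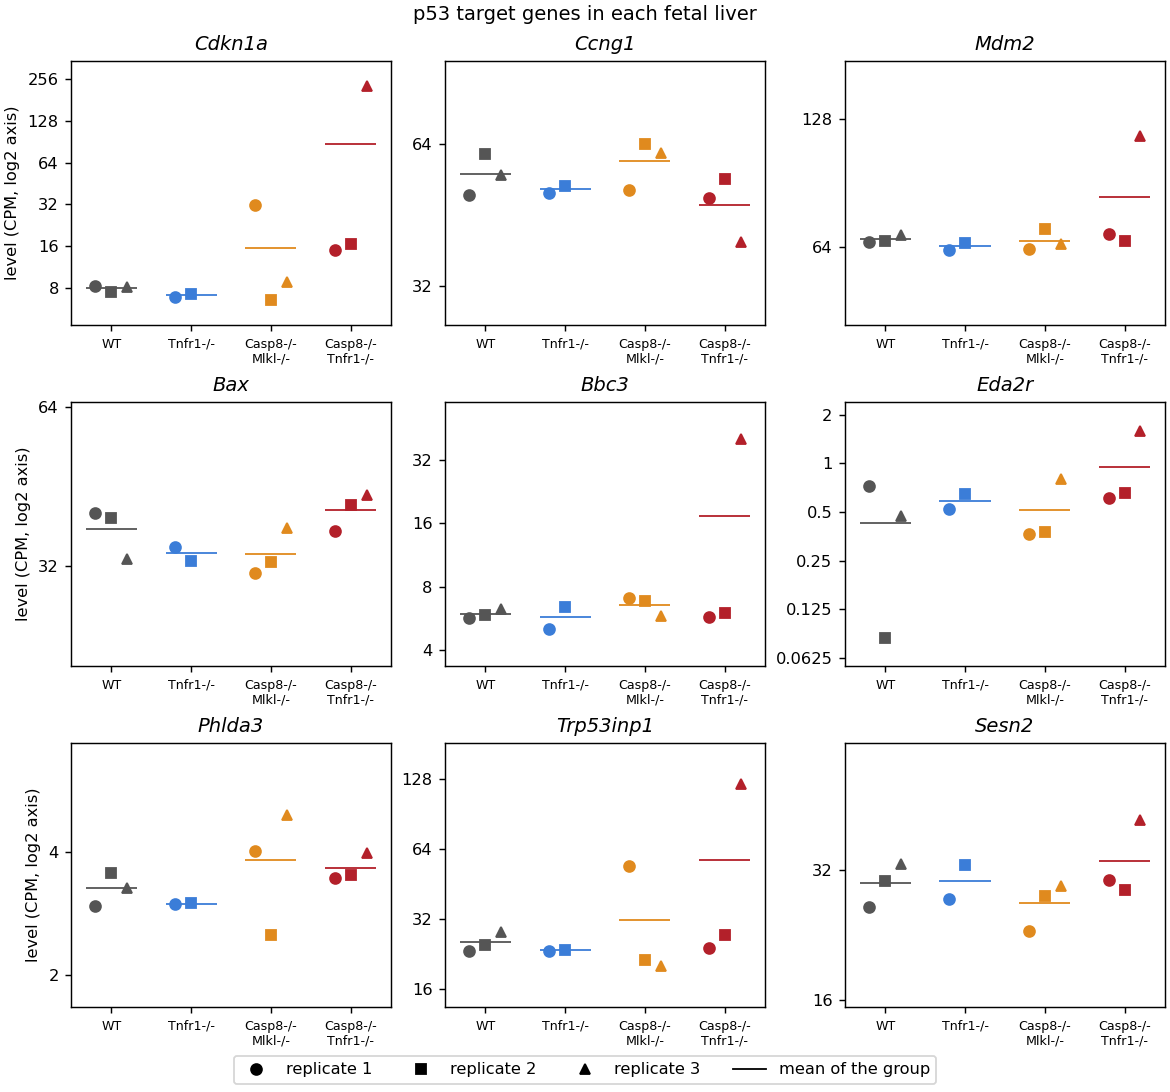
Level of each p53 target gene (CPM, log2 axis) in each liver by genotype; symbols mark the replicate and lines the mean of the group. Casp8-/- Tnfr1-/- replicate 3 is the highest of the 11 livers for 7 of the 9 genes, and Cdkn1a is also raised in the 2 other livers of that genotype, at 14.9 and 16.6 CPM.

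Cdkn1a encodes p21, the inhibitor of cyclin-dependent kinases through which p53 arrests the cell cycle, and spans chr17:29090976-29100727 on the plus strand of GRCm38. It was at 8.18, 7.46 and 8.13 CPM in the WT livers and at 6.92 and 7.18 CPM in the Tnfr1-/- livers. In the Casp8-/- Mlkl-/- livers it was at 31.5, 6.48 and 8.87 CPM, and in the Casp8-/- Tnfr1-/- livers at 14.9, 16.6 and 229.9 CPM. All 3 Casp8-/- Tnfr1-/- livers thus lay above every liver but Casp8-/- Mlkl-/- replicate 1, and replicate 3 stood 14.6-fold over the mean of the 2 others of its genotype. The fitted log2 fold change was 3.46 (SE 1.05, 95% interval 1.11 to 5.80) against WT, with an adjusted p of 0.0854. It was 3.62 (SE 1.26, adjusted p = 0.196) against Tnfr1-/- and 2.48 (SE 1.01, adjusted p = 0.285) against Casp8-/- Mlkl-/-. In an exact two-sided permutation test of mean log2 CPM, 3 livers against 8, the difference was 2.08 with an unadjusted p of 0.0364, where 0.00606 is the smallest p that the 165 splits allow. This p was 0.05 without WT replicate 2, either Tnfr1-/- liver or Casp8-/- Mlkl-/- replicate 2, and 0.133 without Casp8-/- Tnfr1-/- replicate 3.

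Without the 2 livers set apart, Cdkn1a was called in all 3 comparisons and was the single gene of the 9 that was. The 2 remaining Casp8-/- Tnfr1-/- livers averaged 2.07-fold the mean of the 7 others, which ranged from 6.48 to 8.87 CPM and did not overlap with them. By edgeR the log2 fold change was 1.0 (SE 0.136, adjusted p = 6.91e-05) against WT, where 31.3% of all genes were called in this fit. It was 1.17 (SE 0.152, adjusted p = 6.62e-05) against Tnfr1-/-, with 23.2% of all genes called, and 1.05 (SE 0.152, adjusted p = 2.05e-04) against Casp8-/- Mlkl-/-, with 18.1%. A count of 1 of 9 is a smaller share than that of all genes in each comparison. Without Casp8-/- Tnfr1-/- replicate 3 alone, Cdkn1a was not called against WT (0.99, SE 0.539, adjusted p = 0.308) or Tnfr1-/- (1.16, SE 0.604, adjusted p = 0.375). Against Casp8-/- Mlkl-/- its log2 fold change was then 0.018 (SE 0.539, adjusted p = 0.994), with Casp8-/- Mlkl-/- replicate 1, at 31.5 CPM, kept in. The edgeR call against that genotype thus rests on leaving out both livers. The neutrophil markers, a list of 10 genes all detected in every liver, summed to 6207 and 7481 CPM in the 2 remaining Casp8-/- Tnfr1-/- livers and to 18038 CPM in replicate 3, against 1111 to 3622 CPM in the 8 others. All 10 had log2 fold changes above 0 against WT, but the sum does not stand for each marker. In replicate 3, Mpo and Elane of the list were at 53.4 and 14.4 CPM, below all other livers. The part of neutrophils in the level of Cdkn1a was not tested. Of the 50-base stretches of Cdkn1a transcripts, 8.49% also occur on either strand in transcripts of other genes, and 273 exon bases overlap an annotated gene on the opposite strand, AC167363.2.

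Ccng1, which encodes cyclin G1, is a long known p53 target that acts with Mdm2. It was at 49.1, 54.0 and 39.6 CPM in the Casp8-/- Tnfr1-/- livers and at 49.9 to 64.1 CPM in the 8 others. Replicate 3 was thus the lowest liver of all, replicate 1 lay just below the 8 others and replicate 2 within their range, so the groups overlapped. The log2 fold change of Ccng1 against WT was -0.22 (95% interval -0.56 to 0.13, adjusted p = 0.393). Against Casp8-/- Mlkl-/- it was -0.31 (SE 0.154, adjusted p = 0.380), and -0.27 (SE 0.0911, adjusted p = 0.0562) without the 2 livers.

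Mdm2, the negative feedback gene of the pathway, varied least of the 9 genes outside the livers set apart. It was at 66.0, 66.4 and 68.4 CPM in WT, at 63.3 and 65.6 CPM in Tnfr1-/- and at 63.4, 70.5 and 65.1 CPM in Casp8-/- Mlkl-/- livers. The Casp8-/- Tnfr1-/- livers had 68.6, 66.4 and 116.4 CPM, so that replicate 3 was high and the 2 others lay within the range of the rest. The log2 fold change against WT was 0.32 (95% interval -0.12 to 0.77, adjusted p = 0.333), and 0.03 (SE 0.0646, adjusted p = 0.787) without the 2 livers. Over the 9 livers not set apart its coefficient of variation was 3.25%, against 39.0% for Cdkn1a.

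Of the genes of mitochondrial death, Bbc3 was high in 1 liver and Bax overlapped between the groups. Bbc3 encodes PUMA, a BH3-only protein that frees Bax and Bak from their inhibitors. It was at 5.72, 5.91 and 6.27 CPM in WT, at 5.06 and 6.46 CPM in Tnfr1-/- and at 7.09, 6.83 and 5.81 CPM in Casp8-/- Mlkl-/- livers. In the Casp8-/- Tnfr1-/- livers it was at 5.77, 5.99 and 40.1 CPM: replicate 3 alone was high, 6.83-fold over the mean of the 2 others. The log2 fold change of Bbc3 against WT was 1.53 (SE 0.646, adjusted p = 0.182), and -0.0068 (SE 0.155, adjusted p = 0.980) without the 2 livers. Bax was at 37.2, 41.8 and 43.7 CPM in the Casp8-/- Tnfr1-/- livers and at 31.0 to 40.3 CPM in the 8 others, an overlap. Its log2 fold change against WT was 0.12 (95% interval -0.19 to 0.43, adjusted p = 0.586) and its exact permutation p against the 8 others was 0.0485, unadjusted, for a difference of 0.22. That p was 0.0583 to 0.178 without WT replicate 3, any Tnfr1-/- or Casp8-/- Mlkl-/- liver, or Casp8-/- Tnfr1-/- replicate 2 or 3. Bax shares 192 exon bases on its own strand with Gm45808, to which 0 counts were assigned in every liver.

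Trp53inp1, Phlda3 and Eda2r were low, or highest in replicate 3. Trp53inp1, whose product promotes the activity of p53 and takes part in autophagy, was at 23.3, 24.8 and 28.1 CPM in WT and at 23.4 and 23.5 CPM in Tnfr1-/- livers. It was at 54.1, 21.3 and 20.1 CPM in Casp8-/- Mlkl-/- and at 24.0, 27.4 and 121.2 CPM in Casp8-/- Tnfr1-/- livers. The 2 high values of Trp53inp1 were those of the 2 livers set apart, as for Cdkn1a. Its log2 fold change against WT was 1.18 (SE 0.600, adjusted p = 0.252), and 0.03 (SE 0.0987, adjusted p = 0.836) without them. Phlda3, which encodes a repressor of Akt signalling, was at 3.45 to 3.99 CPM in the Casp8-/- Tnfr1-/- livers and at 2.50 to 4.93 CPM in the others, with a log2 fold change of 0.16 (95% interval -0.43 to 0.75, adjusted p = 0.712) against WT. Eda2r, the X-linked receptor for ectodysplasin A2, had 2 to 28 counts a liver. It reached 1.60 CPM in Casp8-/- Tnfr1-/- replicate 3, the liver with the muscle markers and high Xist, against 0.084 to 0.80 CPM elsewhere, and its log2 fold change of 1.11 (SE 0.676, 95% interval -0.40 to 2.61, adjusted p = 0.328) against WT did not pass the test.

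Sesn2, a stress-induced inhibitor of mTORC1 that is also a target of the stress factor ATF4, was at 30.3, 28.7 and 41.7 CPM in the Casp8-/- Tnfr1-/- livers. In the 8 others it ranged from 23.1 to 32.9 CPM, so replicates 1 and 2 lay inside and replicate 3 above. The log2 fold change against WT was 0.17 (95% interval -0.24 to 0.58, adjusted p = 0.561).

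**Figure D2:**
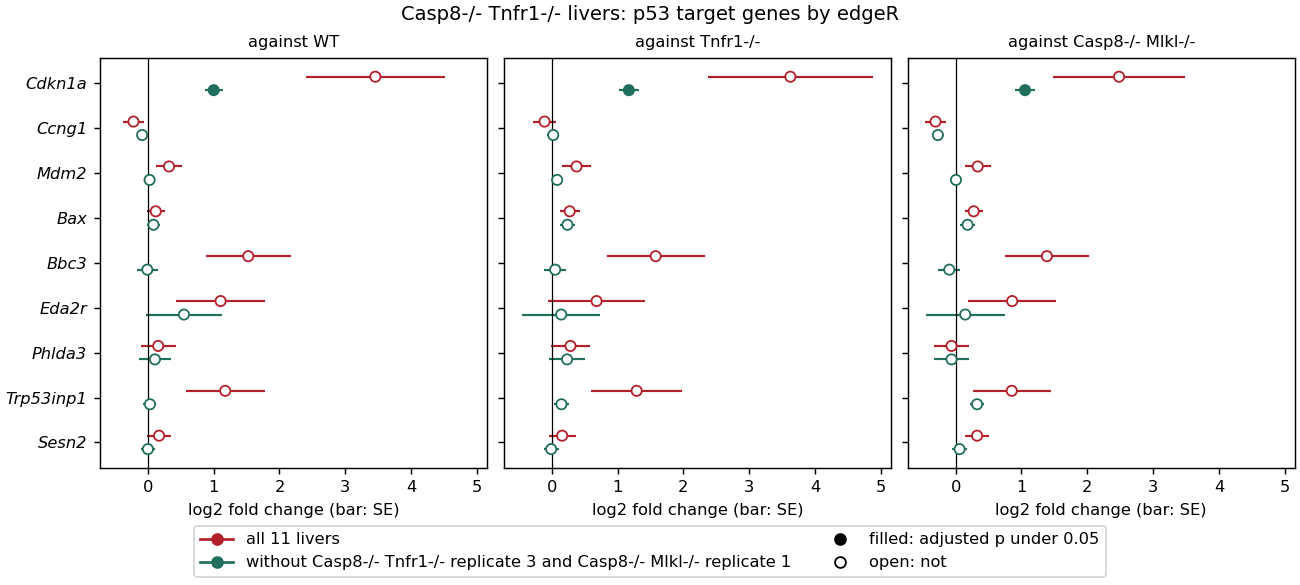
Log2 fold change with its standard error of the 9 p53 target genes in Casp8-/- Tnfr1-/- livers against each other genotype, from all 11 livers (red) and without the 2 livers set apart (green); filled points had an adjusted p under 0.05. Cdkn1a is the single filled gene, in the green fit, while the green values of Bbc3 and Mdm2 against WT are -0.0068 and 0.03.

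The high levels in a single liver are also seen by rank. Casp8-/- Tnfr1-/- replicate 3 was the highest of the 11 livers for 7 of the 9 genes and the lowest for 1, Ccng1. For Bax the lead was small, at 43.7 CPM beside 41.8 CPM in replicate 2. These ranks depend on the scaling of that liver, which had a TMM factor of 0.758, and ranks without it were not taken. Among all genes tested it was the highest liver for 32.3% and the lowest for 38.8%. Replicates 1 and 2 of that genotype were the highest liver for 0 of the 9 genes, where they were for 5.07% and 6.01% of all genes. Casp8-/- Mlkl-/- replicate 1 was the highest for 0 of the 9 and for 16.5% of all genes.

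Between the control genotypes, none of these genes passed the test. In Casp8-/- Mlkl-/- against WT 0 of 9 were called, with 0.0058% of all genes called, and the log2 fold changes ran from -0.15 to 0.97. The highest was that of Cdkn1a (SE 0.976, adjusted p = 0.945), with Casp8-/- Mlkl-/- replicate 1 at 31.5 CPM and the 2 others at 6.48 and 8.87 CPM. In Tnfr1-/- against WT 0 of 9 were called, where 0% of all genes were, and the log2 fold changes ran from -0.17 to 0.42. In both comparisons of all livers 0 of the 9 had an unadjusted p under 0.05 by edgeR, DESeq2 (with no p for Cdkn1a) or limma-voom. Without the 2 livers set apart, Ccng1 and Trp53inp1 had an unadjusted p under 0.05 by edgeR in Casp8-/- Mlkl-/- against WT. There 22.6% of all genes did, and 0 of the 9 were called. Since WT, Tnfr1-/- and Casp8-/- Mlkl-/- livers were each set against the same 3 Casp8-/- Tnfr1-/- livers, the 3 comparisons above share samples.

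Transcripts of p53 itself and of its regulators did not pass the test over all livers. Trp53, the gene of p53, was at 141, 147 and 84.2 CPM in the Casp8-/- Tnfr1-/- livers and at 98.5 to 135 CPM in the 8 others, with replicate 3 the lowest of all. Its log2 fold change against WT was -0.07 (SE 0.209, adjusted p = 0.854), and 0.16 (SE 0.0615, adjusted p = 0.0569) without the 2 livers. Against Tnfr1-/- without the 2 livers, Trp53 was called higher, by 0.29 (SE 0.0675, adjusted p = 0.00664). Mdm4, the partner of Mdm2 that masks the activation domain of p53, was at 95.1 to 110 CPM in the Casp8-/- Tnfr1-/- livers and at 79.4 to 111 CPM in the others, with a log2 fold change of 0.12 (SE 0.156, adjusted p = 0.644). Of the 16 regulators listed, 13 were tested and 0 were called in each of the 3 comparisons of all livers. Against WT 3 log2 fold changes were above 0 and 10 below. By level, and named after their values were seen, some did not overlap with WT. Lower were Usp7 (419 to 478 against 571 to 593 CPM), Ppm1d (52.1 to 68.0 against 77.7 to 87.4 CPM) and Chek2 (28.0 to 52.9 against 64.9 to 70.2 CPM). Atr was higher (49.5 to 93.4 against 44.6 to 49.0 CPM). p53 is controlled largely through the stability of its protein, which these data do not measure.

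Beyond the 9, a list of 34 other p53 targets gave 1 called gene against WT, 1 against Tnfr1-/- and 0 against Casp8-/- Mlkl-/-, and 0 called lower. Of all genes, 5.8%, 2.17% and 1.65% were called in these comparisons, so 1 of 34 is no larger share than that of all genes against WT. The called gene was Pmaip1, which encodes the BH3-only protein NOXA and is also induced by interferon. It was at 4.30, 3.02 and 3.75 CPM in WT and at 3.58 and 2.92 CPM in Tnfr1-/- livers. It was at 7.22, 6.80 and 6.50 CPM in Casp8-/- Mlkl-/- and at 11.5, 10.9 and 23.9 CPM in Casp8-/- Tnfr1-/- livers. The 3 Casp8-/- Tnfr1-/- livers lay above all 8 others. Pmaip1 rose by a log2 fold change of 2.06 (SE 0.313, adjusted p = 0.00569) against WT and 2.24 (SE 0.367, adjusted p = 0.0142) against Tnfr1-/-. Against Casp8-/- Mlkl-/- its value was 1.17 (SE 0.303, adjusted p = 0.101). It was called against WT under all 22 alternatives, and was 1.61 (SE 0.16, adjusted p = 3.55e-06) without the 2 livers.

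The median log2 fold change of the 34 was 0.21 against WT, beside -0.0015 for all genes, with 22 above 0 and 12 below. The list was split without the 2 livers: 11 of 34 were called higher and 12 lower, where 17.8% of all genes were called higher and 13.5% lower, and the median was 0.0011. Of the genes below, chosen after their values were seen, Apaf1, the scaffold of the apoptosome, was at 75.8, 75.8 and 84.7 CPM in Casp8-/- Tnfr1-/- livers and at 56.7 to 70.4 CPM in the 8 others, with a log2 fold change of 0.43 (SE 0.119, adjusted p = 0.0629) against WT. The death receptor gene Fas was at 7.35, 6.30 and 7.75 CPM, against 2.56 to 4.65 CPM in 7 of the others and 14.2 CPM in Casp8-/- Mlkl-/- replicate 1. Without the 2 livers the log2 fold change against WT was 0.40 (adjusted p = 2.79e-04) for Apaf1 and 1.0 (adjusted p = 3.00e-04) for Fas. Gadd45a, a growth arrest gene, was at 513 CPM in replicate 3 and at 52.0 and 59.1 CPM in the 2 others of the genotype, where WT livers had 75.4 to 98.4 CPM.

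**Figure D3:**
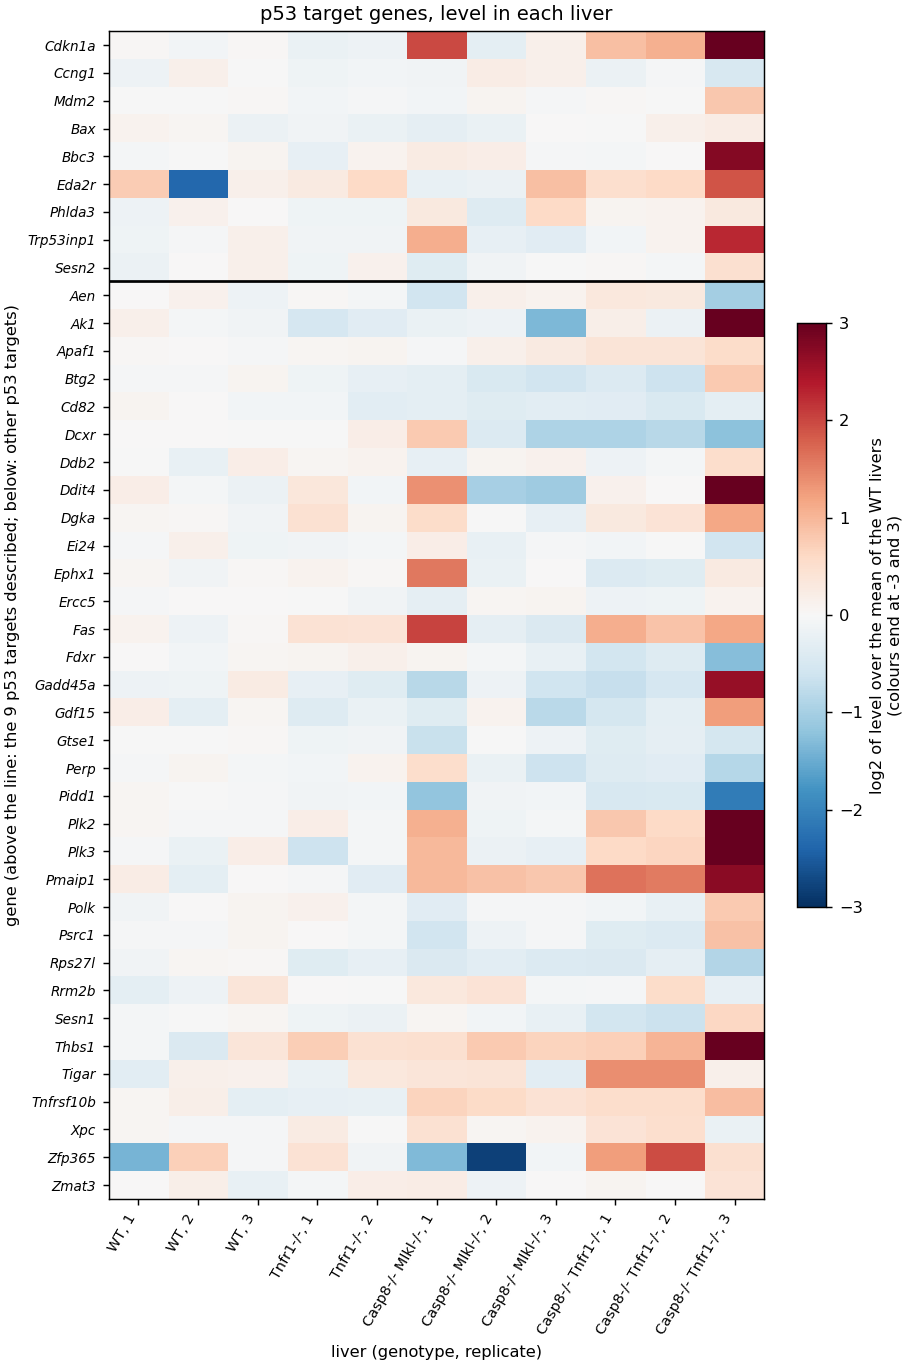
Level of the 9 p53 target genes (above the line) and of other p53 targets of the list (below) in each liver, as log2 of the ratio to the mean of the 3 WT livers, with colours ending at -3 and 3. The column of Casp8-/- Tnfr1-/- replicate 3 holds the strongest colours, and Pmaip1 is raised in all 3 livers of its genotype, at 10.9 to 23.9 CPM.

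The cell cycle genes, which include targets that p53 lowers through p21, did not pass the test over all livers. Of 20 listed, 0 were called in each comparison of the Casp8-/- Tnfr1-/- livers, with 19, 19 and 16 of 20 log2 fold changes below 0. The median was -0.47 against WT, -0.34 against Tnfr1-/- and -0.21 against Casp8-/- Mlkl-/-. Without the 2 livers 14 of 20 fell against WT, 5 against Tnfr1-/- and 4 against Casp8-/- Mlkl-/-, with 0 higher, and the medians were -0.30, -0.17 and -0.20. Of all genes, 13.5%, 9.3% and 6.1% fell in these comparisons, and 31.3%, 23.2% and 18.1% were called in either direction. The 10 erythroid markers, none at 0 in any liver, summed to 41748 and 41995 CPM in Casp8-/- Tnfr1-/- replicates 1 and 2, below all 8 livers of the other genotypes (43649 to 68504 CPM), while the neutrophil markers given above were higher there. In Casp8-/- Mlkl-/- against WT all 20 values were below 0 as well, with a median of -0.26 and 0 called, and all 10 erythroid markers were below 0 too, with a median of -0.34 and 0 called. The part of these cells in the levels of the cell cycle genes was not tested. The genes of the integrated stress response, which share Sesn2 with the 9, gave 1 called of 10 against WT and Tnfr1-/- and 0 against Casp8-/- Mlkl-/-, where 5.8%, 2.17% and 1.65% of all genes were called. The called gene was the stress factor Atf3, at 12.3, 14.9 and 113 CPM in Casp8-/- Tnfr1-/- and at 1.29 to 5.11 CPM in the 8 other livers. Its log2 fold change was 4.51 (SE 0.855, adjusted p = 0.0148) against WT, and 2.74 (SE 0.212, adjusted p = 2.85e-07) without the 2 livers. Atf3 was called against WT under 17 of 22 alternatives. It was not called with limma-voom, with only the 2 genotypes compared, or without any 1 of the WT livers (edgeR adjusted p of 0.0685 to 0.0911 without a WT liver).

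The inflammatory genes rose together. All 18 listed rose in Casp8-/- Tnfr1-/- livers against WT, 15 against Tnfr1-/- and 10 against Casp8-/- Mlkl-/-, with median log2 fold changes of 4.27, 4.47 and 2.68. Of all genes, 5.1%, 2.05% and 1.54% rose in these comparisons. For 15 of the 18, every Casp8-/- Tnfr1-/- liver lay above all 8 others, as for 7.43% of all genes. Without the 2 livers all 18 were called higher in each comparison, where 17.8%, 13.9% and 12% of all genes were, with medians of 3.98, 4.27 and 3.10. The list holds genes the study named from these livers, so it is no independent evidence of its direction. Cxcl10, a chemokine induced by interferon, was at 125, 103 and 92.7 CPM in the Casp8-/- Tnfr1-/- livers and at 2.55 to 15.6 CPM in the others. Ifit1, an antiviral RNA-binding protein, was at 95.6, 87.1 and 184 CPM against 0.883 to 8.23 CPM. Replicate 3 was the highest liver for 12 of the 18 genes and replicate 1 for the 6 others, Cxcl10 among them. The summed level of the list was 3405 CPM in replicate 3 and 1693 and 1555 CPM in replicates 1 and 2. It was 626, 203 and 213 CPM in the Casp8-/- Mlkl-/- livers and 122 to 137 CPM in the WT and Tnfr1-/- livers. In Casp8-/- Mlkl-/- against WT all 18 log2 fold changes were above 0 as well, with a median of 1.16. There 0 of the 18 were called, where 0.0058% of all genes were.

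**Figure D4:**
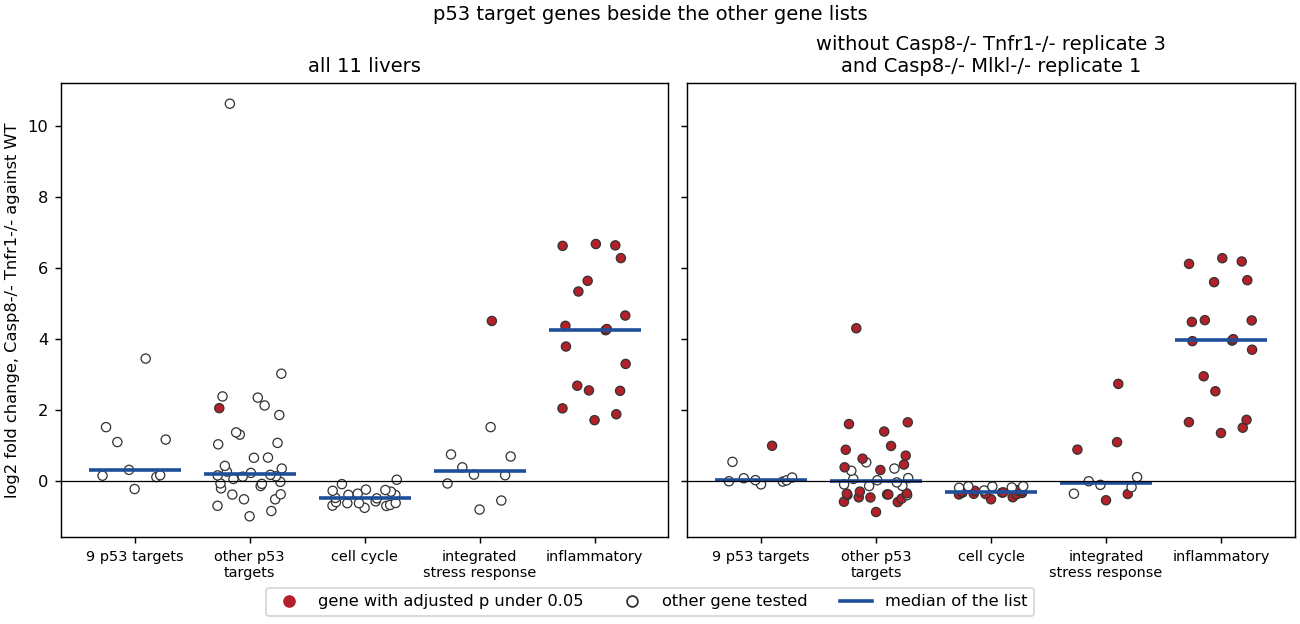
Log2 fold change of single genes (points) in Casp8-/- Tnfr1-/- livers against WT, by gene list, from all 11 livers (left) and without the 2 livers set apart (right); red points had an adjusted p under 0.05 and blue lines are medians. The inflammatory list sits at medians of 4.27 and 3.98, and the 9 p53 targets at 0.32 and 0.03.

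The genes nearest to Cdkn1a were sought by the Euclidean distance of log2 CPM, each gene centred on its own mean over the 11 livers. The 5 nearest were Nfil3, Hilpda, Retreg1, Junb and P4ha2, at distances of 0.775 to 1.07. All 5 had their highest level in Casp8-/- Tnfr1-/- replicate 3, from 95.7 CPM for P4ha2 to 347 CPM for Junb. Their next highest was in Casp8-/- Mlkl-/- replicate 1, as for Cdkn1a, while the order of the livers below these was not the same for all. The 5 genes were picked for likeness to Cdkn1a over these same livers, so the shared peaks are no separate evidence. Of the 9 targets Trp53inp1 was the nearest to Cdkn1a, ranked 541 of the genes tested, followed by Bbc3 at rank 642. Mdm2 ranked 4362 and Ccng1 10775.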

How the data were processed

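RNA of 11 fetal livers was sequenced by the authors as single-end reads. Per the labels, reads were aligned to GRCm38 with GSNAP (version 2013-11-10), and the authors deposited for each liver the uniquely mapped reads on exons as raw counts per Ensembl gene, with a gene width in bases and an RPKM value scaled to that width and to a library total. The counting tool, annotation release and use of strand are not given in the sources used here. The deposited RPKM values were not tested; widths served for levels per kb.

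Gene names came from GENCODE M21 (52489 of 52636 identifiers matched). Counts were fitted by edgeR 4.0.16 in R 4.3.3 (TMM scaling, filterByExpr with a minimum count of 10, quasi-likelihood test) in 1 fit of all 11 livers with genotype as the single term, with Benjamini-Hochberg adjustment over 17243 genes and a threshold of 0.05. Intervals are 95%. Log2 CPM used a prior count of 2. limma 3.58.1 and DESeq2 1.42.0 were alternatives, with other scalings, filters, sample sets, a replicate block and each liver left out. Depth was 23129212 to 35819339 counts. No 2 livers agreed within sampling noise (lowest chi-square per degree of freedom 6.45). The labels do not say whether livers came from separate litters, so p-values measure the spread between these livers.

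The 9 genes, the other gene lists and the markers were chosen with earlier results of these data known. Besides the 9, the text names Trp53, Mdm4, the targeted genes, up to 8 other p53 targets, 4 cell cycle, 3 integrated stress response and 3 inflammatory genes called against WT with the smallest p, and the 5 genes nearest to Cdkn1a; others are said to be chosen after their values were seen. Some genes of the lists enter the counts and medians but are not reported here by name. A search of wider regions for p53 elements was planned; RefSeq promoter windows were used instead. The tests were checked on simulated counts with less spread between livers than these data and with no liver that stands apart. That check therefore does not cover the livers set apart here.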

Additional observations from a re-analysis of the deposited data

How the results depend on the processing

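Each comparison was repeated under 22 alternatives. The count of p53 targets called in Casp8-/- Tnfr1-/- livers went from 0 to 1, always Cdkn1a, against each of the other genotypes with limma-voom quality weights (1) and without both livers set apart (1). Against WT it was also 1 with no filter on low counts (adjusted p = 0.0384) and from 0 to 1 over the livers left out in turn. Cdkn1a was called there without Casp8-/- Tnfr1-/- replicate 1 (log2 fold change 3.96, adjusted p = 0.0405) or replicate 2 (3.95, adjusted p = 0.0426). Its adjusted p against WT ran from 6.91e-05 to 0.308, and no other gene of the 9 was called under any alternative. In Casp8-/- Mlkl-/- and in Tnfr1-/- livers against WT the count was 0 under every alternative. Of all genes, 281 to 5314 were called against WT, 30 to 4325 against Tnfr1-/- and 11 to 3067 against Casp8-/- Mlkl-/-. Replicate numbers did not pair the livers (r of same-numbered livers -0.297 to 0.275, over 0.1 in 5 of 15 pairs); with the replicate block 0 of the 9 were called in each comparison, and 572 genes in place of 1000 against WT.

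None of the values that changed sign passed the test in the fit of all livers or in the alternative; all are log2 fold changes. With livers left out in turn, against WT Bbc3 ran from -0.015 to 1.95, Sesn2 from -0.0067 to 0.28 and Trp53 from -0.19 to 0.16. Against Tnfr1-/-, Ccng1 ran from -0.20 to 0.0083 and Sesn2 from -0.026 to 0.28. Against Casp8-/- Mlkl-/-, Bbc3 ran from -0.16 to 1.815, Phlda3 from -0.28 to 0.18 and Trp53inp1 from -0.30 to 1.47. In Casp8-/- Mlkl-/- against WT, Cdkn1a ran from -0.047 to 1.34, Mdm2 from -0.066 to 0.021, Eda2r from -0.24 to 0.85, Phlda3 from -0.013 to 0.45 and Trp53inp1 from -0.29 to 0.56. The difference in level against the 8 other livers ran from -0.052 to 1.34 for Bbc3 and from -0.012 to 1.16 for Trp53inp1, lowest without Casp8-/- Tnfr1-/- replicate 3. For Cdkn1a it was 0.79 without that liver (exact permutation p = 0.133). Without both livers the values were -0.0068 for Bbc3 and 0.16 for Trp53 against WT, 0.023 for Ccng1 and -0.0081 for Sesn2 against Tnfr1-/-, -0.096 for Bbc3 against Casp8-/- Mlkl-/-, and -0.053 for Cdkn1a, 0.023 for Mdm2 and -0.29 for Trp53inp1 in Casp8-/- Mlkl-/- against WT. With quality weights they were 0.14 for Trp53 against WT, -0.054 for Bbc3 against Casp8-/- Mlkl-/-, and 3.87e-05 for Mdm2 and -0.24 for Trp53inp1 in Casp8-/- Mlkl-/- against WT; limma-voom gave 0.0041 for Phlda3 against Casp8-/- Mlkl-/-. Beyond the fewer livers, the cause of these changes was not tested. Groups of 2 and 3 livers and, for Eda2r, at most 28 counts limit what could be seen.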
